A study of Homo sapiens with 9 samples.

Results

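TXNIP and ARRDC4, a pair of alpha-arrestin genes, rose more than 3-fold when HepG2 cells were deprived of Gln. The genes of the sugar-sensing transcription factors that are known to drive them, MLXIP and MLXIPL, and of their partner MLX rose 1.19-fold to 1.30-fold. ARRDC2 rose less than ARRDC4, and ARRDC3 fell. These 7 genes (MLX, MLXIP, MLXIPL, TXNIP, ARRDC2, ARRDC3 and ARRDC4) were taken by name from the 22587 genes of the expression table, and all 7 passed the filter on low values together with 11880 genes in all.

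MLXIP encodes MondoA and MLXIPL encodes ChREBP, and each binds DNA only as a partner of the small protein MLX. Glucose 6-phosphate activates both complexes, which then occupy carbohydrate response elements, paired sequences that resemble the E-box. TXNIP, the best known of their targets, binds thioredoxin and limits the entry of glucose into the cell. ARRDC2, ARRDC3 and ARRDC4 share the arrestin fold of TXNIP, and alpha-arrestins carry short motifs through which ubiquitin ligases of the NEDD4 family are brought to membrane proteins. Gln is known from other cell types to restrain MondoA at the TXNIP gene.

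RNA-seq was made of HepG2, an established human line from 1 liver tumor, kept in high-glucose medium with serum. A group of 3 libraries came from cells in normal medium (Gln added), and 3 libraries each came from cells without Gln for 12 h and for 24 h, counted from a change of medium 24 h after seeding. No culture time is given for the Gln added cells, so time in culture and Gln deprivation cannot be told apart in the comparisons with them. GlutaMAX, a stable dipeptide that can supply Gln, is listed for the Gln added cells in the sample labels but for the deprivation medium in the protocol and the methods, and this was not resolved. The labels do not say whether the replicates were separate cultures, so p-values measure only the spread between these libraries, which may be technical.

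The libraries held 29621270 to 36261546 fragments on genes, as recovered from the steps of the FPKM values (fragments divided by gene length and library depth), and 17998 to 18594 genes were above 0. The 6 hepatocyte markers ALB, APOA1, TTR, AFP, SERPINA1 and HNF4A were all expressed in each group. Their means ran from 16.8 FPKM (TTR at 24 h) to 3831 FPKM (ALB with Gln added). By limma 4 of them fell and 0 rose at both 12 h and 24 h, against 31% and 31.7% of all genes that fell. Their median log2 fold changes were -0.18 and -0.17, with -0.02 and 0.01 over all genes. Among the 5 markers of other cell types, PTPRC and KRT5 had no row, COL1A1 and CDH5 were at 0 in 6 and 7 libraries, and PECAM1 lay between 0.090 and 0.343 FPKM. The summed level of these markers was 0.184 to 0.350 FPKM with Gln added, 0.0947 to 0.189 FPKM at 12 h and 0.113 to 0.185 FPKM at 24 h. Its part in the results was not tested.

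The promoter sequences printed here were chosen by expression, as TXNIP and ARRDC4 moved together and ARRDC3 moved the other way. Whether sequence bears on these moves was not tested. RefSeq promoter windows (GRCh38.p14, 250 bases before to 50 after each annotated start) were matched for 7 of 7 genes, with 10 windows in all. Both strands were searched for the E-box CACGTG, the CCAAT box and TGANTCA, a loose form of the AP-1 motif with any middle base. They were also searched for 2 copies of CACGNG in the same direction with 5 bases between them. This is called the paired form here and is 1 type of carbohydrate response element. Copies that face opposite ways were not searched, so a gene without the paired form may still hold such an element. An E-box can also be read as 1 of the copies in the paired form. The stretches below run 5′ to 3′ on the strand of the gene and end at the base before the start. That of ARRDC4 holds 250 bases, and those of TXNIP and ARRDC3 hold 150. Capitals mark the paired match in TXNIP and the E-box in ARRDC4. ARRDC3 has neither, and MLX, which is not printed, also holds an E-box.
TXNIP, chr1:145996580-145996729 (GRCh38.p14, minus strand): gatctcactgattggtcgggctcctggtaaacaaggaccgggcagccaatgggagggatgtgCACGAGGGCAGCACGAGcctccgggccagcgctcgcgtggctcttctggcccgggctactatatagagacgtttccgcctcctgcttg
ARRDC4, chr15:97960453-97960702 (GRCh38.p14, plus strand): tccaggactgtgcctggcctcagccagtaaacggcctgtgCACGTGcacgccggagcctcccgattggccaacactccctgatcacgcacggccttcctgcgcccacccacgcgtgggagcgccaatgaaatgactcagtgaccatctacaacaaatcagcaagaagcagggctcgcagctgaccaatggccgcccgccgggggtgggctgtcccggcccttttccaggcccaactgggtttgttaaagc
ARRDC3, chr5:91383318-91383467 (GRCh38.p14, minus strand): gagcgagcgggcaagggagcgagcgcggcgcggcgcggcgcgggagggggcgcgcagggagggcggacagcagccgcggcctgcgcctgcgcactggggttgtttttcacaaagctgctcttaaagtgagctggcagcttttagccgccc

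In TXNIP the paired match, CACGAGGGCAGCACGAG, ran from -88 to -72 relative to the start, with CCAAT boxes at -140 and -105. The paired form was rare, occurring in 20 of 35116 windows (0.057%), and TXNIP was the only one of the 7 genes that held it. ARRDC4 held an E-box at -210, CCAAT boxes at -187, -128 and -67 and an AP-1 motif at -119. MLX held an E-box at -50 and a CCAAT box at -66, while MLXIP, ARRDC3 and a window of ARRDC2 held a CCAAT box each. The other ARRDC2 window held TGATTCA at -121, which matches only the loose AP-1 pattern. The MLXIPL window had no match. The E-box occurred in 7.26% of all windows, the CCAAT box in 34.6% and the loose AP-1 pattern in 7.71%.

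Genes with the paired form moved in both directions. Of the 20 genes with the paired form, 15 were tested, and at 12 h 6 of them rose and 4 fell, against 60.2% of all 11880 genes changed in either direction (29.1% higher and 31% lower). At 24 h the counts were also 6 and 4, against 64.7% of all genes changed (33% higher and 31.7% lower). TXNIP was among them, and the log2 fold changes of the others at 12 h ran from -1.14 for MYL5, a myosin light chain, to 0.58 for HSPBAP1. MYL5 and HSPBAP1 are named as the ends of that range, after their values were seen.

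In the comparison of 12 h deprivation with Gln added, all 7 genes changed at an adjusted p under 0.05 by limma, 6 of them higher and 1 lower, and the same held at 24 h. These counts stand beside the 60.2% and 64.7% of all genes that changed, so a call by itself says little about the 7 genes, and size tells more. The median of their log2 fold changes stood at 0.34 after 12 h and 0.38 after 24 h, with -0.02 and 0.01 over all genes, and their median absolute change was 0.69 and 0.81, with 0.25 and 0.28 over all genes. The 7 genes were chosen with earlier results of these data known, so these medians are a description and not a test. For each of the 7 genes the 3 deprived libraries did not overlap the 3 Gln added libraries at either time (exact permutation test, two-sided, p = 0.1, the smallest that 3 libraries against 3 allow). Such a separation was seen in 67.2% of all genes at 12 h and 69.9% at 24 h. Both comparisons use the same 3 Gln added libraries. In bulk libraries, fewer cells that express a gene and less of its RNA per cell cannot be told apart.

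**Figure D1:**
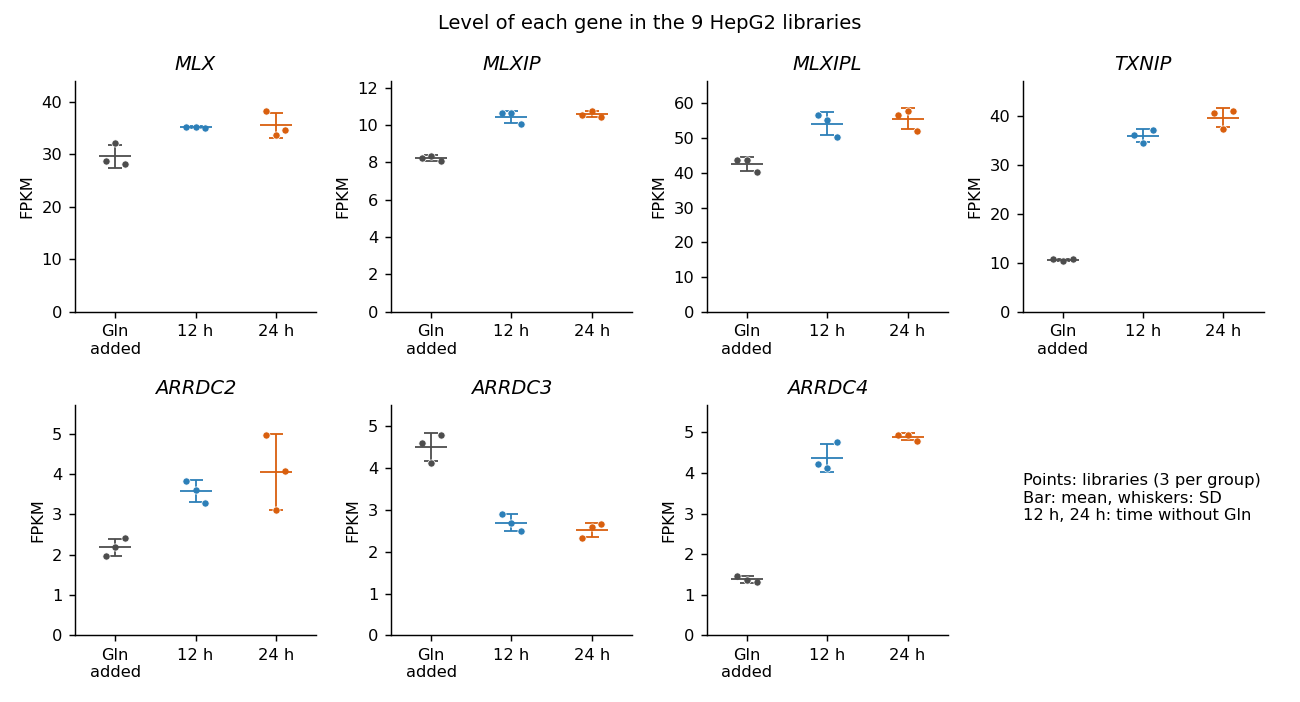
FPKM of the 7 genes in each library (points), with the mean (bar) and SD (whiskers) of 3 libraries in the Gln added, 12 h and 24 h groups, each panel on its own linear axis from 0. ARRDC3 is the gene whose deprived libraries, 2.34 to 2.91 FPKM, lie below the Gln added libraries, 4.13 to 4.80 FPKM.

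TXNIP (chr1:145992435-145996579, GRCh38, minus strand) changed the most. Its level was 10.8, 10.4 and 10.8 FPKM in the Gln added libraries, 36.1, 34.6 and 37.3 FPKM at 12 h and 40.6, 37.5 and 41.1 FPKM at 24 h. The lowest deprived library thus stood more than 3 times above the highest Gln added one, and the 12 h and 24 h libraries did not overlap either. The mean rose from 10.7 ± 0.206 FPKM (SD, n = 3) to 36.0 ± 1.35 FPKM at 12 h, 3.38-fold, and 39.7 ± 1.96 FPKM at 24 h, 3.72-fold. On the log2(FPKM + 0.1) scale the change was 1.75 ± 0.05 (SE) at 12 h (limma, adjusted p = 5.43e-10) and 1.89 ± 0.05 at 24 h (limma, adjusted p = 2.5e-10). TXNIP was the 47th highest of 11880 log2 fold changes at 12 h and the 53rd at 24 h, within the top 0.396% and 0.446%.

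ARRDC4 (chr15:97960703-97973833, GRCh38, plus strand), an alpha-arrestin that is also a known Mondo target, followed TXNIP at a far lower level. Its libraries gave 1.46, 1.36 and 1.31 FPKM with Gln added, 4.23, 4.11 and 4.76 FPKM at 12 h and 4.94, 4.93 and 4.79 FPKM at 24 h. Again no deprived library came near a Gln added one, and the 12 h and 24 h libraries were separate by a narrow margin. On the log2 scale it rose by 1.60 ± 0.07 (SE) at 12 h (limma, adjusted p = 2.88e-08) and 1.76 ± 0.07 at 24 h (limma, adjusted p = 9.07e-09), the 65th and the 67th highest of all genes. With 189 to 718 fragments a library, ARRDC4 is close enough to the pseudocount for it to matter: with 1 FPKM added in place of 0.1, the log2 changes were 1.17 and 1.31. The means, 1.38 ± 0.078, 4.37 ± 0.346 and 4.88 ± 0.086 FPKM (SD, n = 3), had ratios of 3.17 and 3.55 to Gln added.

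The proportion of TXNIP to ARRDC4 moved little while both genes rose. TXNIP was 7.76 ± 0.444 times ARRDC4 in FPKM with Gln added, 8.26 ± 0.375 times at 12 h and 8.14 ± 0.496 times at 24 h (SD, n = 3). The libraries overlapped at both times (exact permutation test, two-sided, p = 0.2 and 0.5 against Gln added).

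ARRDC2 (chr19:18001132-18014102, GRCh38, plus strand) rose less and with more spread. It was at 1.97, 2.18 and 2.40 FPKM with Gln added, 3.83, 3.61 and 3.29 FPKM at 12 h, and 4.97, 3.10 and 4.07 FPKM at 24 h. The 24 h libraries were the most scattered of the 7 genes and spanned the whole 12 h range. The log2 fold change was 0.69 ± 0.14 (SE) at 12 h (limma, adjusted p = 0.00188) and 0.84 ± 0.14 at 24 h (limma, adjusted p = 0.000435), and the latter ran from 0.68 to 1.01 as each library was left out in turn. A gene on the opposite strand overlaps 9.53% of the exonic bases of ARRDC2, and whether the counting used strand is not given in the sources used here.

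ARRDC3 (chr5:91368631-91383317, GRCh38, minus strand), which is known for bringing NEDD4-type ligases to the beta-2 adrenergic receptor, was the one gene of the 7 that fell. Its libraries gave 4.59, 4.13 and 4.80 FPKM with Gln added, 2.91, 2.68 and 2.50 FPKM at 12 h and 2.34, 2.60 and 2.66 FPKM at 24 h. All deprived libraries lay below all Gln added ones, and the 12 h and 24 h libraries overlapped. ARRDC3 fell by 0.72 ± 0.08 (SE) on the log2 scale at 12 h (limma, adjusted p = 3.05e-05) and by 0.81 ± 0.08 at 24 h (limma, adjusted p = 9.81e-06), to 0.598 and 0.562 of the Gln added mean. Changes this low or lower were found in 5.41% and 5.05% of genes. The antisense gene ARRDC3-AS1 overlaps 2.91% of the exonic bases of ARRDC3.

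**Figure D2:**
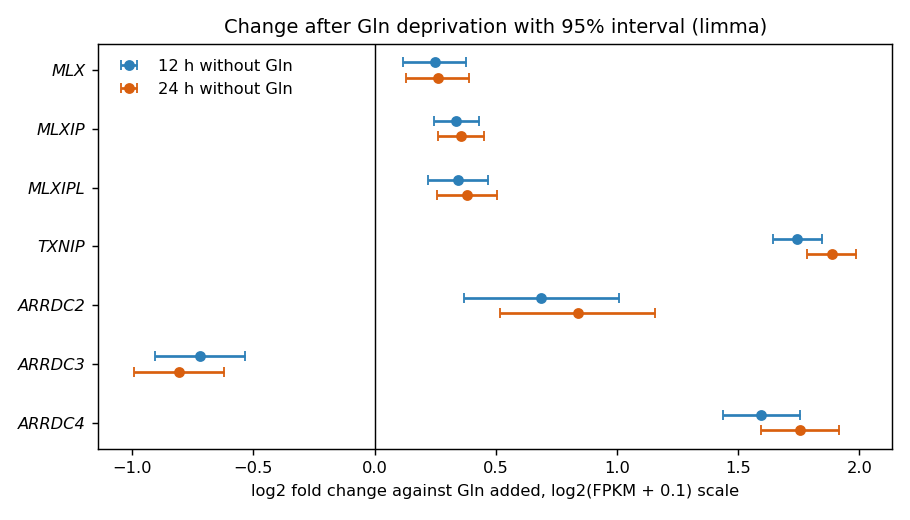
log2 fold change against Gln added on the log2(FPKM + 0.1) scale (points) with the 95% interval of limma (whiskers) for the 7 genes at 12 h and 24 h. TXNIP at 1.75 and 1.89 and ARRDC4 at 1.60 and 1.76 lie apart from ARRDC2, from the factors at 0.25 to 0.38 and from ARRDC3 at -0.72 and -0.81.

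The opposite moves of ARRDC3 and ARRDC4 reversed their order. Within a library the ratio of ARRDC4 to ARRDC3 was 0.319, 0.329 and 0.273 with Gln added, 1.46, 1.54 and 1.91 at 12 h and 2.11, 1.90 and 1.80 at 24 h. ARRDC3 was thus the more abundant of the pair in all Gln added libraries and the less abundant in all deprived libraries. The ratio did not overlap with Gln added at either time (exact permutation test, two-sided, p = 0.1 at both times). That separation follows from the moves of the pair given above, so its p-value is no further test. Among these 7 genes ARRDC4 moved from the lowest place with Gln added to above ARRDC2 and ARRDC3, although at 24 h the values of ARRDC4 and ARRDC2 overlapped.

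Over the 5 measured alpha-arrestins (TXNIP and ARRDC1 to ARRDC4), the summed level was 24.1 ± 0.830 FPKM (SD, n = 3) with Gln added, 51.5 ± 1.25 FPKM at 12 h and 56.3 ± 2.59 FPKM at 24 h. The share of TXNIP in that sum went from 44.2 ± 0.696% with Gln to 69.9 ± 1.17% after 12 h and 70.5 ± 0.804% after 24 h. The Gln added libraries reached at most 45.0% and the deprived ones were at least 69.2% (exact permutation test, two-sided, p = 0.1). As TXNIP is part of the sum, this share mostly restates the rise of TXNIP and is no further test.

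**Figure D3:**
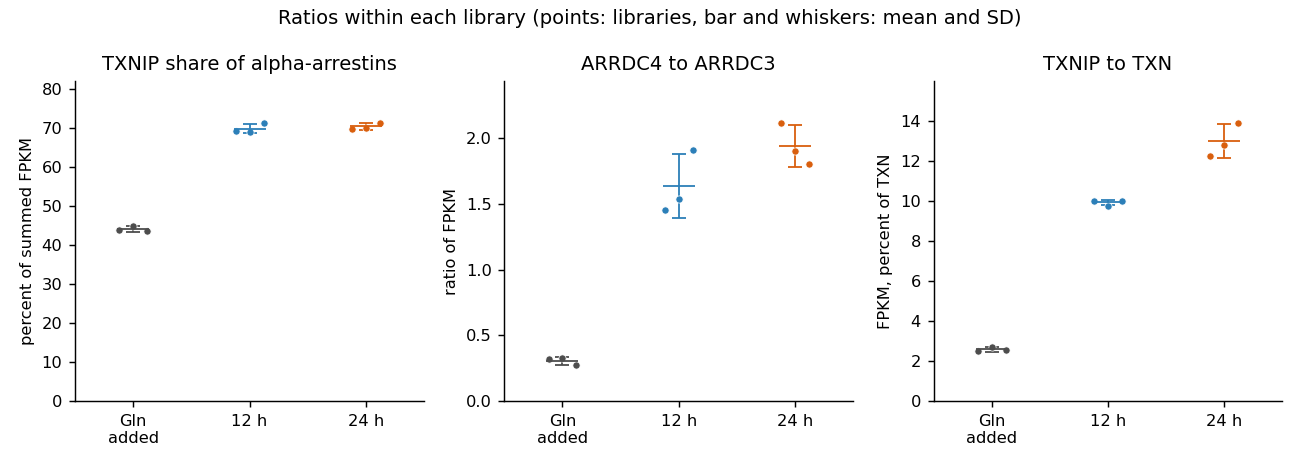
Ratios of FPKM within each library (points) with the mean (bar) and SD (whiskers) of 3 libraries per group: TXNIP as a percent of the alpha-arrestin sum, ARRDC4 to ARRDC3, and TXNIP as a percent of TXN. All 3 ratios are higher in every deprived library than in any Gln added library, with TXNIP at 43.6% to 45.0% of the alpha-arrestins with Gln added and 69.2% to 71.4% without.

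The transcription factors rose by smaller amounts than TXNIP and ARRDC4. MLXIPL (ChREBP; chr7:73593194-73624543, GRCh38, minus strand) was at 43.7, 43.7 and 40.4 FPKM with Gln added, 56.7, 55.3 and 50.4 FPKM at 12 h and 56.7, 57.8 and 52.1 FPKM at 24 h. It was the most abundant of the 7 genes in each group. Its log2 fold change was 0.34 ± 0.06 (SE) at 12 h (limma, adjusted p = 0.000361) and 0.38 ± 0.06 at 24 h (limma, adjusted p = 0.000142).

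MLXIP (MondoA; chr12:122078756-122147344, GRCh38, plus strand) was at 8.25, 8.37 and 8.10 FPKM with Gln added, 10.6, 10.6 and 10.0 FPKM at 12 h and 10.5, 10.7 and 10.4 FPKM at 24 h. These values were tight within each group, and the deprived groups overlapped each other. Its log2 fold change was 0.34 ± 0.04 (SE) at 12 h (limma, adjusted p = 5.48e-05) and 0.36 ± 0.04 at 24 h (limma, adjusted p = 2.82e-05). ChREBP and MondoA transcripts kept nearly the same proportion, with MLXIPL at 5.17 ± 0.162, 5.18 ± 0.156 and 5.25 ± 0.224 times MLXIP in FPKM (SD, n = 3; exact permutation test, two-sided, p = 0.8 and 0.5 against Gln added).

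MLX (chr17:42567072-42573239, GRCh38, plus strand), their common partner, was at 28.7, 32.1 and 28.1 FPKM with Gln added, 35.3, 35.2 and 35.0 FPKM at 12 h and 38.2, 33.6 and 34.7 FPKM at 24 h. It had the smallest change of the 7 genes at both times, with a log2 fold change of 0.25 ± 0.06 (SE) at 12 h (limma, adjusted p = 0.00389) and 0.26 ± 0.06 at 24 h (limma, adjusted p = 0.00258). Rises as large as that of MLX were found in 24.3% of all genes at 12 h and 27.6% at 24 h, against 17.9% and 20.7% for MLXIP and 17.5% and 19.1% for MLXIPL. PSMC3IP, on the opposite strand, overlaps 18.2% of the exonic bases of MLX, so reads of the 2 genes could not be told apart there unless strand was used in counting.

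With Gln added, the order of the 7 genes by mean FPKM was MLXIPL, MLX, TXNIP, MLXIP, ARRDC3, ARRDC2 and ARRDC4, and no neighbours overlapped. At both deprivation times it was MLXIPL, TXNIP, MLX, MLXIP, ARRDC4, ARRDC2 and ARRDC3. TXNIP and MLX overlapped at both times, as did ARRDC4 and ARRDC2 at 24 h.

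Between 24 h and 12 h of deprivation 0 of the 7 genes changed at an adjusted p under 0.05 by limma, against 20.1% of all genes (9.57% higher and 10.5% lower), and 1 of the 7, TXNIP, had an unadjusted p under 0.05. TXNIP was higher at 24 h by 0.14 on the log2 scale (95% interval 0.04 to 0.24, limma, adjusted p = 0.0534). It passed the threshold by limma with voom on the recovered fragments (adjusted p = 0.0331), and the adjusted p over all alternatives ran from 0.0208 to 0.169. ARRDC4 differed by 0.16 (95% interval -0.00037 to 0.32, limma, adjusted p = 0.149). TXNIP and ARRDC4 were the only 2 of the 7 genes whose 24 h and 12 h libraries did not overlap, a separation found in 34.4% of all genes. For ARRDC2 the interval was wide, -0.17 to 0.47, and without replicate 1 at 24 h the difference was -0.0073 in place of 0.15. For MLX, MLXIP, MLXIPL and ARRDC3 the intervals lay between -0.27 and 0.16.

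Genes of related pathways were taken as lists, called in the same limma fit, and the SE of the log2 fold changes of those named lay between 0.03 (SCD) and 0.11 (NEDD4). TXN encodes thioredoxin, the protein that TXNIP binds, and it fell while TXNIP rose. The level of TXN was 412 ± 23.9 FPKM (SD, n = 3) with Gln added, 363 ± 9.39 FPKM at 12 h (limma, adjusted p = 0.0153) and 307 ± 21.6 FPKM at 24 h (limma, adjusted p = 5.80e-05). TXNIP was thus 2.51%, 2.71% and 2.56% of TXN in FPKM in the Gln added libraries, at most 10.0% at 12 h and 12.2% to 13.9% at 24 h, with no overlap between the 3 groups. The 12 h call of TXN was lost when either replicate 1 or replicate 3 of Gln added or replicate 2 of 12 h was left out (adjusted p 0.0651, 0.0567 and 0.0542 by limma). Of the 5 thioredoxin system genes tested, 1 rose and 3 fell at 12 h, and 1 rose and 2 fell at 24 h, shares that stand beside the 60.2% and 64.7% of all genes changed. TXNRD1, the cytosolic thioredoxin reductase, rose from 146 to 230 FPKM at 12 h. It was still higher than with Gln added at 24 h, at 169 FPKM (log2 fold change 0.21, limma, adjusted p = 0.000302). TXNRD3 fell from 1.85 to 1.43 FPKM at 12 h (limma, adjusted p = 0.00807) and was at 1.74 FPKM at 24 h (limma, adjusted p = 0.465).

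Ligases of the NEDD4 family, which alpha-arrestins recruit, changed less than TXNIP and ARRDC4, with SMURF1 and SMURF2 the most changed of those tested. Of 7 tested, 4 rose and 1 fell at 12 h, and 6 rose and 1 fell at 24 h, with a median log2 fold change of 0.20 and 0.24, while 60.2% and 64.7% of all genes changed (29.1% and 33% higher). SMURF1 rose from 5.45 to 8.41 and 9.49 FPKM (log2 fold change 0.62 and 0.79) and SMURF2 from 5.32 to 7.16 and 8.13 FPKM (0.42 and 0.60). NEDD4 itself was 0.27 higher on the log2 scale at 24 h (limma, adjusted p = 0.0452), and that call was lost with 8 of 19 alternatives, among them leaving out any of 5 libraries (replicates 1 and 2 of Gln added, 2 of 12 h, and 2 and 3 of 24 h), with adjusted p up to 0.164. HECW1 and HECW2 were too low to test.

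Other genes with the arrestin fold moved less than TXNIP and ARRDC4. ARRDC1 differed by -0.16 on the log2 scale at 12 h (limma, adjusted p = 0.0481), a call that was lost with 11 of 19 alternatives, 7 of which left out a library, and by -0.07 at 24 h (limma, adjusted p = 0.359). The beta-arrestin ARRB1 was at 3.51 FPKM with Gln added and 3.56 FPKM at 12 h and rose to 5.29 FPKM at 24 h (log2 fold change 0.58), and ARRB2 rose from 28.3 to 32.1 and 32.6 FPKM. Of these 3 genes, 1 rose and 1 fell at 12 h and 2 rose at 24 h. Over all genes 60.2% changed at 12 h and 64.7% at 24 h (29.1% and 33% higher). ARRDC5 had no row.

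In the network that shares partners with MLX, the repressor gene MXD1 rose from 3.01 to 6.97 and 7.45 FPKM (log2 fold change 1.18 and 1.28). MXD4 rose from 11.1 to 15.4 and 19.0 FPKM (0.47 and 0.77), and MAX from 8.41 to 11.7 and 12.7 FPKM (0.47 and 0.59). All 4 genes of the list rose at 12 h, and 3 rose at 24 h, with a median log2 fold change of 0.47 and 0.68, against 29.1% and 33% of all genes that rose.

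Known Mondo targets in sugar metabolism and signalling moved in both directions. Of 10 tested, 3 rose and 6 fell at both 12 h and 24 h, with a median log2 fold change of -0.35 at both times. Over all genes 29.1% rose and 31% fell at 12 h, and 33% rose and 31.7% fell at 24 h. KLF10, a zinc-finger repressor, rose from 8.04 ± 0.292 FPKM (SD, n = 3) to 30.1 ± 1.24 and 38.0 ± 2.99 FPKM (log2 fold change 1.89 and 2.22), more than TXNIP did. G6PC1, the catalytic subunit of glucose 6-phosphatase, rose from 1.74 to 3.36 and 5.11 FPKM (0.91 and 1.5), and HK2 was the third gene that rose. PKLR, the liver pyruvate kinase and a classical ChREBP target, fell from 8.56 to 5.16 and 4.84 FPKM (-0.72 and -0.81). HK2 is named after its values were seen. RGS16 and FGF21 were too low to test.

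ChREBP also acts on lipogenic genes that SREBP drives, and here 7 of 8 tested fell and 1, GPAM, rose at both times, with a median log2 fold change of -0.77 and -0.79, against 31% and 31.7% of all genes that fell. PNPLA3, a lipid droplet enzyme, fell from 11.4 to 3.30 FPKM at 12 h and 3.2 FPKM at 24 h (-1.77 and -1.81), FASN, the fatty acid synthase, from 165 to 74.3 and 74.3 FPKM (-1.15 and -1.15), and SCD, the stearoyl-CoA desaturase, from 650 to 349 and 342 FPKM (-0.90 and -0.93). The fall of these genes stood beside a rise of MLXIPL in the same libraries. These are RNA levels of whole genes, and the activity of ChREBP was not measured.

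Of 8 tested genes for the entry of glucose and the handling of glucose 6-phosphate, 2 rose and 6 fell at both times, with a median log2 fold change of -0.52 and -0.53, against 31% and 31.7% of all genes that fell. SLC2A3, a glucose transporter, fell from 63.3 to 30.5 and 19.9 FPKM (-1.05 and -1.66), and SLC37A4, the glucose 6-phosphate carrier of the endoplasmic reticulum, from 18.9 to 11.8 and 12.5 FPKM. GCKR rose from 13.5 to 22.9 and 23.5 FPKM (0.75 and 0.79). SLC2A1, the transporter whose surface level TXNIP is known to restrain, rose from 162 to 235 and 246 FPKM (0.54 and 0.61).

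**Figure D4:**
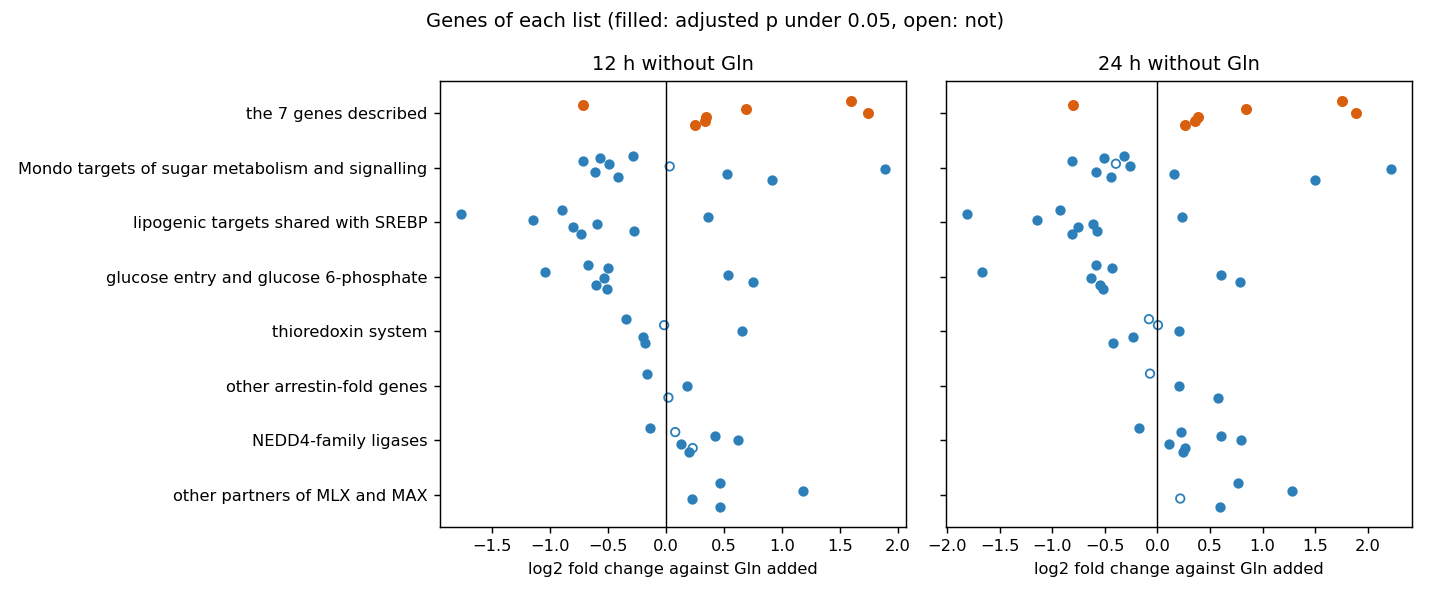
log2 fold change against Gln added of each tested gene, by list (blue, filled where the adjusted p is under 0.05), with the 7 genes at the top (orange), at 12 h and 24 h. Lipogenic genes lie mostly left of 0, with medians of -0.77 and -0.79, while TXNIP and ARRDC4 lie at 1.60 or above.

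The genes most like each of the 7 in pattern were taken by Pearson's r of log2(FPKM + 0.1) over the 9 libraries, among the 10868 genes whose mean reached 1 FPKM. The libraries share 3 groups, so r mostly reads the differences between groups and is given as a description. TXNIP was most like FST (r = 0.9996), which encodes follistatin, then the long non-coding RNA CCAT1 (0.9985) and the kinase gene CDC42BPA (0.9982). The genes most like ARRDC4 included FST (0.9977) and VLDLR (0.9977), so that FST was near both. ARRDC3 was most like ZNF789 (0.9892), RBL1 (0.9889), a pocket protein of the cell cycle, and the centromere gene CENPI (0.9863).

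For MLXIP the nearest genes were GRAMD1A (0.998), SLC2A1 (0.9971) and SLC35F6 (0.9969). MLXIPL was nearest to MIDEAS, DXO and ZDHHC9 (0.9897 to 0.9879), MLX to AGER, BAK1 and SUGP2 (0.9823 to 0.9721) and ARRDC2 to SPECC1L, MTMR3 and RER1 (0.9872 to 0.9772). Among the 7 genes themselves r was 0.997 for TXNIP with ARRDC4, -0.973 for TXNIP with ARRDC3 and 0.974 for MLXIP with MLXIPL.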

How the data were processed

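RNA-seq of 9 HepG2 libraries in 3 groups was used. The values deposited by the authors are FPKM, and all 9 columns were matched to the labels. According to the methods, reads were aligned to GRCh38 with STAR; the submitters' processing notes name HTSeq and R 3.2.0. The annotation is not given in the sources used here. The labels name a VAHTS kit and the methods a strand-specific NEBNext kit, so strandedness is unknown.

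FPKM are not counts, so differences were tested with limma 3.58.1 (R 4.3.3, lmFit and eBayes with trend, two-sided). The model held all 3 groups and used log2(FPKM + 0.1) of the 11880 genes whose mean reached 0.5 FPKM, and p-values were adjusted over these by Benjamini-Hochberg. Calls had an adjusted p under 0.05. Such fold changes understate the change of low genes. Whole fragments were recovered from the FPKM steps for 100% of 22587 genes (tolerance 0.001 fragments). On these, limma with voom, an alternative, called 7312, 7857 and 2640 genes at 12 h, at 24 h and between them. All replicate pairs differed beyond sampling noise. Other alternatives changed the pseudocount, filter, scaling, samples in the fit, trend or replicate block, or left out each library in turn.

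Gene positions came from GENCODE 44 and promoters from RefSeq. From each list the 3 genes with the largest absolute log2 fold change were named, and for each of the 7 genes the 3 most alike by Pearson r (SLC2A1 among them); all markers were named, and a few others that a count singles out. Some genes that these rules name are not reported here. The 7 genes and the lists were chosen with earlier results of these data known. The scripts were tested on simulated data.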

Additional observations from a re-analysis of the deposited data

How the results depend on the processing

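Across 69 results, 1268 of 1311 values under an alternative stayed the same. For a fold change this means the same direction and side of the threshold. For a count of genes called it means within 1.5 times the reported count. Among the rest, 23 fold changes lost a call, 8 gained one, 7 changed sign, and 5 counts moved further. Several alternatives leave a fold change as it was and alter only its p-value. The count of all genes called stayed within 1.5 times the reported count in each comparison. The split between higher and lower genes moved with the scaling: after FPKM were scaled to an equal total in each library it was 3835 higher to 3302 lower at 12 h (3461 to 3686 as reported) and 1301 to 1095 between 24 h and 12 h (1137 to 1249 as reported), and with median-ratio scaling the latter was 976 to 1480. The 7 genes remained called against Gln added at 12 h and 24 h under every alternative run, the highest adjusted p being 0.0198 for MLX at 12 h without replicate 3 of Gln added. Between 24 h and 12 h the number of the 7 genes called was 1 (TXNIP) in place of 0 with FPKM rescaled to the same total, with the replicate block and with voom, and 0 to 1 as libraries were left out in turn (1 without replicate 3 at 12 h or replicate 2 at 24 h). The cause was not tested. Small differences between 24 h and 12 h changed sign: MLX was -0.0077 and MLXIP -0.0011 on the log2 scale with median-ratio scaling, and as libraries were left out MLX ran from -0.042 to 0.050, MLXIP from -0.0082 to 0.032, MLXIPL from -0.013 to 0.083 and ARRDC2 from -0.0073 to 0.33. ARRB1 at 12 h ran from -0.015 (without replicate 2 of Gln added) to 0.044. With the replicate block 7341, 7802 and 2586 genes were called at 12 h, at 24 h and between them; the deviations of same-numbered libraries correlated at r -0.16 to 0.304, over 0.1 in 2 of 9 pairs, with the own number the best match in 12 of 18 cases, a hint of pairing for some libraries that fell short of every pair, so the numbers were not taken to pair them, and beyond TXNIP the block changed the call of NEDD4 at 12 h (adjusted p = 0.0464 by limma). ARRDC2 and ARRDC4, with as few as 208 and 189 fragments in a library, are the least precise of the 7 genes in counting error.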
